A study of Mus musculus with 2 samples.

Results

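Tumor necrosis factor (TNF), the lymphotoxins and their receptors were followed as a group of 6 genes of the 31053 listed in the count tables: the ligands *Tnf*, *Lta* and *Ltb* and the receptors *Tnfrsf1a* (TNFR1), *Tnfrsf1b* (TNFR2) and *Ltbr* (LTβR). They were taken by symbol as a family of ligands and receptors, with earlier results of these data known, and all 6 were found in both libraries. The data came from single-cell RNA sequencing of kidney cells of MRL-*lpr* mice, a spontaneous lupus model in which both age groups carry the *Fas* lpr mutation, with 1 library for old and 1 for young mice. Kidneys were pooled within each age, and leukocytes were enriched on a density gradient and again with a magnetic kit for innate lymphoid cells before live cells were sorted, so cell shares are not frequencies in the kidney. The number of mice in each pool was not given in the sources used here. Neither pool had a replicate, so no test between the ages was possible and each value stands with a 95% interval that covers counting error only.

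TNF is made as a membrane protein, is shed by ADAM17 and binds TNFR1, which most nucleated cells carry, and TNFR2, which is largely restricted to leukocytes and endothelium. Lymphotoxin α is secreted as a homotrimer that binds the same receptors, or is held at the cell surface by lymphotoxin β as a heterotrimer that binds LTβR, a receptor of stromal, epithelial and myeloid cells that shapes lymphoid tissue. TNFR1 and LTβR signal to the classical and alternative arms of NF-kB, and TNF is long known as an inflammatory cytokine in lupus nephritis.

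The 3 ligand genes lie side by side within 10913 bases of chromosome 17 in GRCm38 (mm10), with *Ltb* at chr17:35194439-35196320 on the plus strand, *Tnf* at chr17:35199381-35202007 on the minus strand and *Lta* at chr17:35203165-35205351 on the minus strand. *Ltb* and *Tnf* are 3060 bases apart, and *Tnf* and *Lta* 1157 bases. *Ltbr* (chr6:125306571-125313885, minus strand) and *Tnfrsf1a* (chr6:125349362-125362484, plus strand) are neighbors on chromosome 6, with 35476 bases between them, and *Tnfrsf1b* is at chr4:145213463-145246870 on the minus strand. The upstream sequences of the ligand genes are shown because genes of a common locus were found at different levels in the cell classes described below. Each is from RefSeq (GRCm38.p6), 5′ to 3′ on the strand of the gene, and capitals mark TATAAA in *Tnf* and *Lta* and a match to the NF-kB motif in *Ltb*.
Tnf, chr17:35202008-35202257: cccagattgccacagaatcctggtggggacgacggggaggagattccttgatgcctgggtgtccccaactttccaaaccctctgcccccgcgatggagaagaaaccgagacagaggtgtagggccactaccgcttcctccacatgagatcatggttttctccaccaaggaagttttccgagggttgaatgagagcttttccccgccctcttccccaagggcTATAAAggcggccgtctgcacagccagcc
Lta, chr17:35205352-35205601: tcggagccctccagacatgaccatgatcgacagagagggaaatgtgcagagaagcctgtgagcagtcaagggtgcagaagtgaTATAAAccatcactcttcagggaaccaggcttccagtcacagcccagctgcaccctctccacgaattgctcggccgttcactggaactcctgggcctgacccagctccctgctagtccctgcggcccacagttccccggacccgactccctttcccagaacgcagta
Ltb, chr17:35194257-35194438: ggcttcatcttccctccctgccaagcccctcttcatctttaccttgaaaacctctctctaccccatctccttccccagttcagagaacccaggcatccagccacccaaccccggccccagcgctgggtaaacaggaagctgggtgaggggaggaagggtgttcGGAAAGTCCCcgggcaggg
The window was 250 bases before each RefSeq start, and 68 bases that lie inside the annotated *Ltb* gene were left out. TATAAA, searched on the strand of the gene, starts 29 bases upstream of the *Tnf* start and 167 bases upstream of the *Lta* start, and stands in 2494 of 32851 promoters (7.59%). The NF-kB motif, searched on both strands, was matched by GGAAAGTCCC 87 bases upstream of the RefSeq start of *Ltb*, and stands in 1281 of the same promoters (3.90%). These matches describe letters in the windows shown and not sites in use.

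After barcodes with fewer than 200 genes or more than 20% mitochondrial unique molecular identifiers (UMIs) were removed, the young library held 11429 cells with 145647185 UMIs and the old library 10232 cells with 119218130 UMIs, with medians of 7881 and 6933 UMIs per cell. Cells were assigned to classes by gates, each asking for UMIs of 2 to 5 marker genes, and levels are given as counts per 1000000 UMIs (CPM) after UMIs were summed over a class. Barcodes that met gates of more than 1 lineage (5.87% in the young and 5.14% in the old library) were kept apart, as were 1202 and 845 cells that met no gate. Of the kept barcodes, 26 occurred in both libraries. The methods describe female mice. Yet cells with UMIs of Y-linked genes and none of *Xist* made up 50.8% of the young and 40.6% of the old library. Cells with the reverse pattern made up 14.6% and 29.1%. Some ratios of old over young were therefore also computed within each of these sets of cells. Ratios between classes were not split in this way, nor were pathway genes other than inflammatory target genes in PT cells. The classes differed in number between the libraries, with 500 young and 3943 old T cells, 1251 and 301 ILC2s, 326 and 161 B cells, 143 and 152 neutrophils, 211 and 208 monocytes or macrophages, and 6526 and 3616 proximal tubule (PT) cells. Among the 10 leading genes of each of the 12 classes with at least 50 cells in a library, none was a marker of another class.

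**Figure D1:**
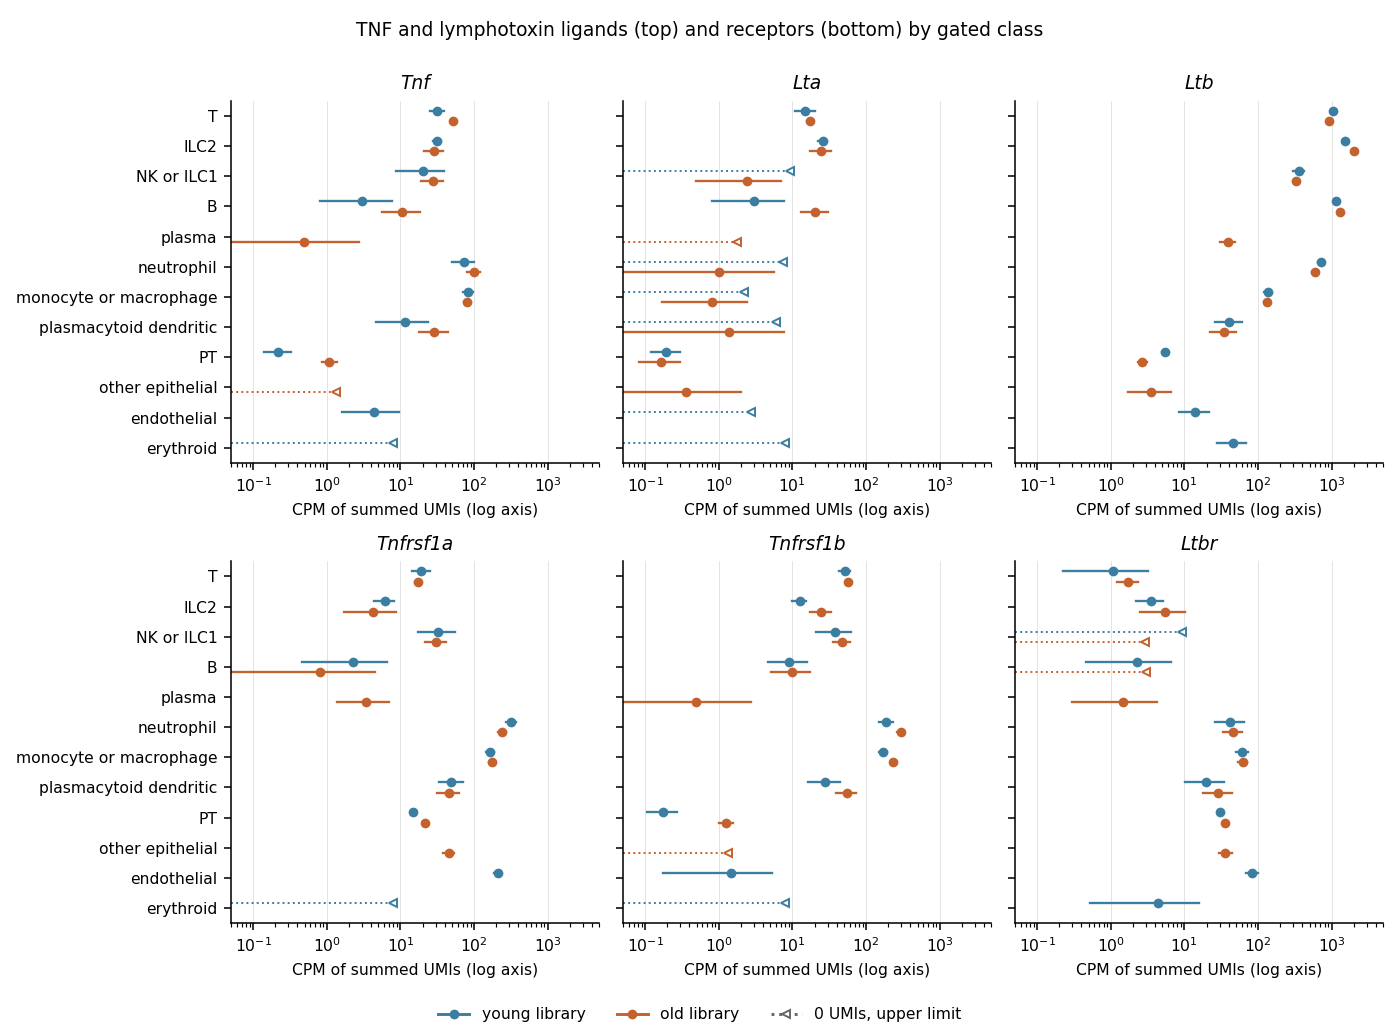
Level of each ligand (top row) and receptor (bottom row) by gated class, as CPM of summed UMIs on a log axis, in the young (blue) and old (orange) library; points are sums over at least 50 cells, lines are 95% counting intervals, and open triangles with dotted lines are upper limits where no UMI was found. *Ltb* was highest in ILC2s, *Tnf* in neutrophils and monocytes or macrophages, and *Ltbr* was near or at 0 in lymphoid classes.

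*Tnf*, the gene of the soluble and membrane cytokine, was highest, among whole gates of at least 50 cells, in monocytes or macrophages and in neutrophils. In the young library its level was 82.8 CPM (69.7 to 97.8) in monocytes or macrophages and 72.0 CPM (50.4 to 99.6) in neutrophils, and the intervals overlapped. ILC2s stood at 31.4 CPM (27.4 to 35.9) and T cells at 31.3 CPM (25.0 to 38.6). These leukocyte classes were followed by NK cells or ILC1s at 19.97 CPM, plasmacytoid dendritic cells at 11.4 CPM, endothelial cells at 4.39 CPM and B cells at 3.003 CPM, whose neighbors in that order overlapped. PT cells were at 0.220 CPM (0.143 to 0.325), below every leukocyte class of at least 50 cells.
In the old library neutrophils held 98.1 CPM (79.6 to 119.5), monocytes or macrophages 80.8 CPM (71.9 to 90.6) and T cells 51.1 CPM (48.2 to 54.1). Monocytes or macrophages thus stood above T cells in each library, by log2 ratios of 1.40 (young, 1.007 to 1.81) and 0.66 (old, 0.47 to 0.85). ILC2s (28.5 CPM), plasmacytoid dendritic cells (28.6 CPM) and NK cells or ILC1s (27.3 CPM) had overlapping intervals, and B cells were at 10.6 CPM (5.66 to 18.2). PT cells were at 1.08 CPM (0.848 to 1.36), with 72 UMIs in 28 of 3616 cells, and 38.9% of these UMIs came from 1 cell. These 2 gates thus stood above the other whole gates in each library, although old CD4+ T cells without *Foxp3*, a subset of the T cell gate, were level with them at 86.0 CPM (78.9 to 93.7). In the old library ILC2s stood below T cells, by a log2 ratio of -0.84 (-1.30 to -0.42).

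Within the myeloid gate, macrophages of the young library held 133 CPM of *Tnf* (100.3 to 173, 74 cells) and monocytes 66.6 CPM (53.2 to 82.3, 137 cells). The old monocytes held 82.5 CPM (71.9 to 94.3, 159 cells), and the 49 old macrophages 76.6 CPM, of which 27.8% came from 1 cell. The 2-fold gap of the young library between macrophages and monocytes was therefore not seen in the old library, where the log2 ratio of monocytes over macrophages was 0.11 (-0.27 to 0.50).

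The share of cells with at least 1 *Tnf* UMI depends on depth, so it was also computed for cells thinned to 1000 UMIs each. In T cells, 12.6% of young and 18.1% of old cells had a *Tnf* UMI, or 3.33% and 4.74% after thinning, at median depths of 4726 and 4831 UMIs. In PT cells, which serve as the background for free RNA, the shares were 0.276% and 0.774% at median depths of 14384.5 and 15407.5 UMIs, or 0.0466% and 0.0838% after thinning. In monocytes or macrophages, whose median depth was 7275 UMIs in the young and 16556.5 UMIs in the old library, the unthinned shares of 36.5% and 46.2% became 8.90% and 7.60%. The *Tnf*-bearing fraction of T cells and of myeloid cells was thus far above the background in each library, and the higher raw share of old myeloid cells was not seen at equal depth.

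Among T cells, *Tnf* was highest in CD4+ cells without *Foxp3*, but in the young library their interval overlapped those of other subsets. Their level was 48.6 CPM (31.1 to 72.3) over 97 young cells and 86.0 CPM (78.9 to 93.7) over 1064 old cells, a 1.77-fold difference (log2 0.82, 0.24 to 1.48). In CD8+ T cells it was 20.9 CPM (12.6 to 32.7) and 45.2 CPM (40.6 to 50.1), a 2.16-fold difference (log2 1.11, 0.45 to 1.86). In T cells with no *Cd4* or *Cd8* UMI (coreceptor-negative), it was 31.9 CPM (22.4 to 43.9) and 25.8 CPM (22.3 to 29.8). The interval of their log2 ratio spanned 0 (-0.82 to 0.25). This gate can hold cells whose coreceptor transcript was missed, and cells with *Trdc*, a γδ T cell receptor gene, were not excluded. It is thus not the same as the double-negative T cells that accumulate in *Fas*-deficient mice. Its median depth in the old library was 3872 UMIs, against 5169 in CD4+ cells without *Foxp3* and 5943 in CD8+ cells. In T cells as a whole the log2 ratio was 0.71 (0.39 to 1.04), and the difference between the subsets was not tested. Of the young CD4+ cells only 14 and of the young CD8+ cells only 14 had *Xist* and no Y-linked UMI, with 1 and 0 *Tnf* UMIs, and in cells with Y-linked UMIs and no *Xist* the log2 ratios were 0.91 (0.14 to 1.81) in CD4+ and 0.80 (-0.03 to 1.74) in CD8+ cells. Regulatory T cells, marked by *Foxp3*, were few (16 young, 69 old), with 1 and 13 *Tnf* UMIs. In the young library the log2 ratio of CD4+ cells without *Foxp3* was 1.21 (0.28 to 2.16) over CD8+ cells. Over coreceptor-negative cells it was 0.61 (-0.20 to 1.39). Young T cells with *Trdc* held 40.3 CPM of *Tnf* (23.5 to 64.5, 69 cells).

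*Lta*, the gene of lymphotoxin α, was found among the gated classes mainly in lymphoid ones. In the young library 20.9% of its UMIs lay in cells of no gate, 11.9% in barcodes of several lineages and 5.96% in PT cells, and in the old library 5.22%, 4.66% and 2.05%. In the young library ILC2s held 25.8 CPM (22.1 to 29.8), T cells 14.9 CPM (10.7 to 20.2) and B cells 3.003 CPM (0.818 to 7.69, 4 UMIs), and the neighbors in that order did not overlap. In the old library ILC2s (24.2 CPM, 17.3 to 33.0), B cells (20.4 CPM, 13.2 to 30.2, 25 UMIs) and T cells (17.5 CPM, 15.8 to 19.3) overlapped. The log2 ratio of B cells over T cells was thus -2.31 (young, -4.25 to -0.85) and 0.22 (old, -0.42 to 0.81). No *Lta* UMI was found in 211 young monocytes or macrophages or in 143 young neutrophils, which allows up to 1.78 CPM and 5.998 CPM, and 3 UMIs and 1 UMI were found in their old counterparts. These myeloid gates thus held *Tnf* with little or no *Lta*, although the gene lies next to *Tnf*.

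CD4+ T cells without *Foxp3* stood out for *Lta* in the old library. They held 225 UMIs, 36.5 CPM (31.9 to 41.6), against 5.97 CPM (4.38 to 7.93) in CD8+ and 9.07 CPM (7.01 to 11.53) in coreceptor-negative T cells, log2 ratios of 2.61 over CD8+ and 2.01 (1.61 to 2.43) over coreceptor-negative cells. In the young library the same CD4+ cells held 8 UMIs (16.2 CPM, 6.99 to 31.9), of which 87.5% came from 1 of 97 cells. Old over young, *Lta* in CD4+ cells differed 2.26-fold (log2 1.17, 0.17 to 2.40), and without the cell holding most UMIs in each library the log2 ratio was 3.996 (1.501 to 9.31), so its size rests on few young UMIs. In cells with Y-linked UMIs and no *Xist* it was 0.43 (-0.61 to 1.69). Coreceptor-negative cells held 19.8 CPM (12.6 to 29.7) when young and 9.07 CPM when old, with 89 UMIs in all.

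*Ltb*, the gene of the membrane anchor that turns lymphotoxin α into the LTβR ligand, was found in most ILC2s, B cells and T cells. ILC2s held 1533 CPM (1504 to 1562) when young and 2024 CPM (1956 to 2093) when old, the highest of all classes of at least 50 cells in each library. B cells held 1156 CPM (1099 to 1215) and 1299 CPM (1236 to 1364), and T cells 1029.5 CPM (992 to 1068) and 926 CPM (914 to 939). In both libraries the order was ILC2s, B cells, T cells, neutrophils, NK cells or ILC1s, and monocytes or macrophages, with no overlap between neighbors. At least 1 *Ltb* UMI was found in 96.4% and 96.7% of ILC2s, 92.6% and 98.8% of B cells and 91.4% and 88.4% of T cells, against 40.0% and 45.3% of NK cells or ILC1s. At 1000 UMIs per cell the expected shares were 70.7% and 80.2% in ILC2s and 56.2% and 54.2% in T cells, against 0.767% and 0.418% in PT cells.
Neutrophils held 718 CPM (645 to 796) and 591 CPM (545 to 641) of *Ltb*, in 89.5% and 92.1% of cells. The T cell markers summed to 97.96 and 52.04 CPM in this gate, with 2 of 5 and 5 of 5 markers found, and the B cell markers to 13.99 and 14.01 CPM, against 4767 CPM of T cell markers in young T cells. *Ltb* in neutrophils was thus of the order of that in T cells. T cell markers were far below their level in T cells, in part because barcodes that also met the T cell gate were kept apart. Whether RNA of other classes, ILC2s among them, added to *Ltb* in this gate was not tested. Monocytes or macrophages were at 138 CPM (121 to 157) and 131 CPM (119 to 143) of *Ltb*.

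Between the ages, *Ltb* differed by less than 2-fold in every lymphoid class with at least 50 cells in each library. It was higher in old ILC2s (log2 0.40, 0.34 to 0.46) and lower in old T cells (log2 -0.15, -0.21 to -0.10). Among the T cell subsets, coreceptor-negative cells went from 1079 CPM (1020.5 to 1141) to 844 CPM (823 to 866), a log2 ratio of -0.35 (-0.44 to -0.27) that was -0.08 (-0.26 to 0.10) in cells with *Xist* and no Y-linked UMI and -0.62 (-0.75 to -0.49) in the reverse set. CD4+ cells without *Foxp3* (994 and 1002 CPM) and CD8+ cells (910.3 and 880.1 CPM) gave log2 intervals that spanned 0. T cells with *Trdc*, a γδ T cell receptor gene, went from 1432 CPM (1320 to 1551, 69 cells) to 757 CPM (692 to 827, 93 cells). The small difference in all T cells turned to 0.023 when barcodes of several lineages were kept and to 0.14 in cells with *Xist* and no Y-linked UMI. *Foxp3* T cells were higher than other CD4+ cells in each library, at 1617 and 1755 CPM.

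**Figure D2:**
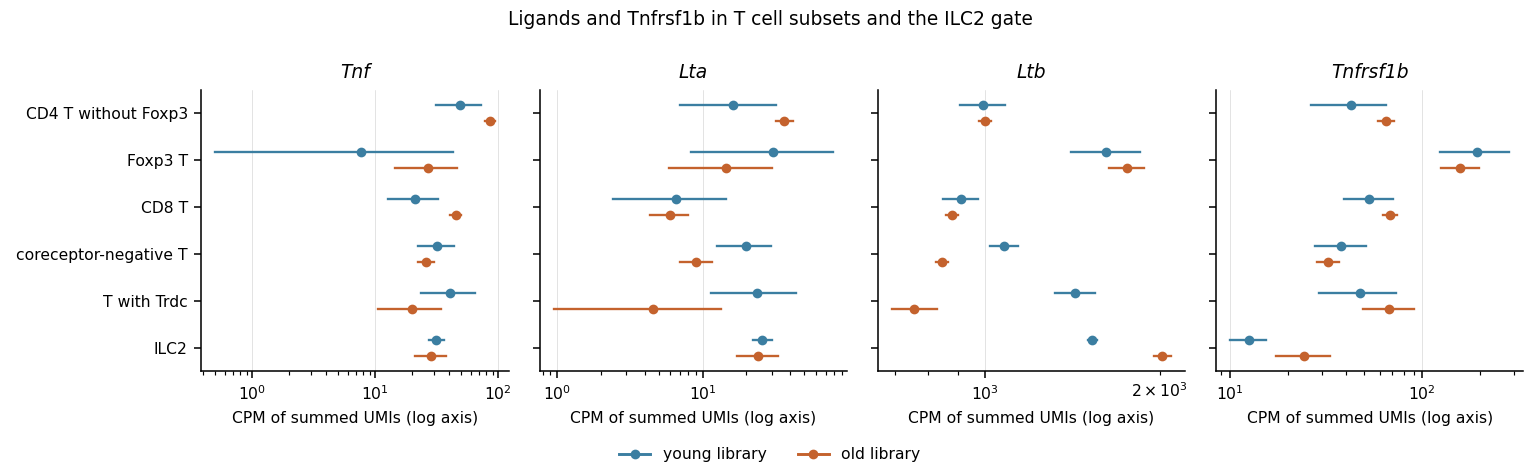
Level of *Tnf*, *Lta*, *Ltb* and *Tnfrsf1b* in subsets of the T cell gate and in ILC2s, as CPM of summed UMIs on a log axis that differs between panels, in the young (blue) and old (orange) library with 95% counting intervals; the young *Foxp3* T cells number 16. Old CD4+ cells without *Foxp3* stand at 86.0 CPM of *Tnf* and 36.5 CPM of *Lta*, above the other T cell subsets of the old library.

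The ligands were then read cell by cell. In old CD4+ T cells without *Foxp3*, 305 of 1064 cells had a *Tnf* UMI and 118 an *Lta* UMI, and 46 had both, which is 15.1% of the *Tnf* cells and 39.0% of the *Lta* cells. In young ILC2s, 165 of 1251 cells had *Tnf*, 152 had *Lta* and 25 had both, 15.2% of the *Tnf* cells and 16.4% of the *Lta* cells. Over all cells, *Lta* was found in 11.1% of these old CD4+ cells and 12.2% of young ILC2s, and *Tnf* in 28.7% and 13.2%. Cells with both were thus a minority of the *Tnf* cells, but each share with both was above that of all cells of its class. Depth was not equalized for these shares, and the difference was not tested. *Ltb* accompanied *Tnf* in 98.8% of the young *Tnf*-bearing ILC2s and 96.8% of the young *Tnf*-bearing T cells, shares close to those of *Ltb* in all cells of these classes.

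The class that held most UMIs of a ligand differed between the libraries, and so did the sizes of the classes. Of all *Tnf* UMIs in kept cells, ILC2s held 24.3% in the young and 2.06% in the old library, T cells 9.67% and 50.5%, and monocytes or macrophages 15.7% and 12.9%. For *Lta*, ILC2s held 48.0% and 7.46%, and T cells 11.1% and 73.7%. For *Ltb*, ILC2s held 43.4% and 10.3%, and T cells 11.7% and 64.3%. The main holder of each lymphotoxin gene was therefore the ILC2 gate in the young and the T cell gate in the old library. Such shares depend on cell numbers after enrichment and also on depth and on the level in each class. In the young library a further 20.9% of *Tnf* UMIs lay in barcodes of several lineages and 14.4% in cells of no gate.

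**Figure D3:**
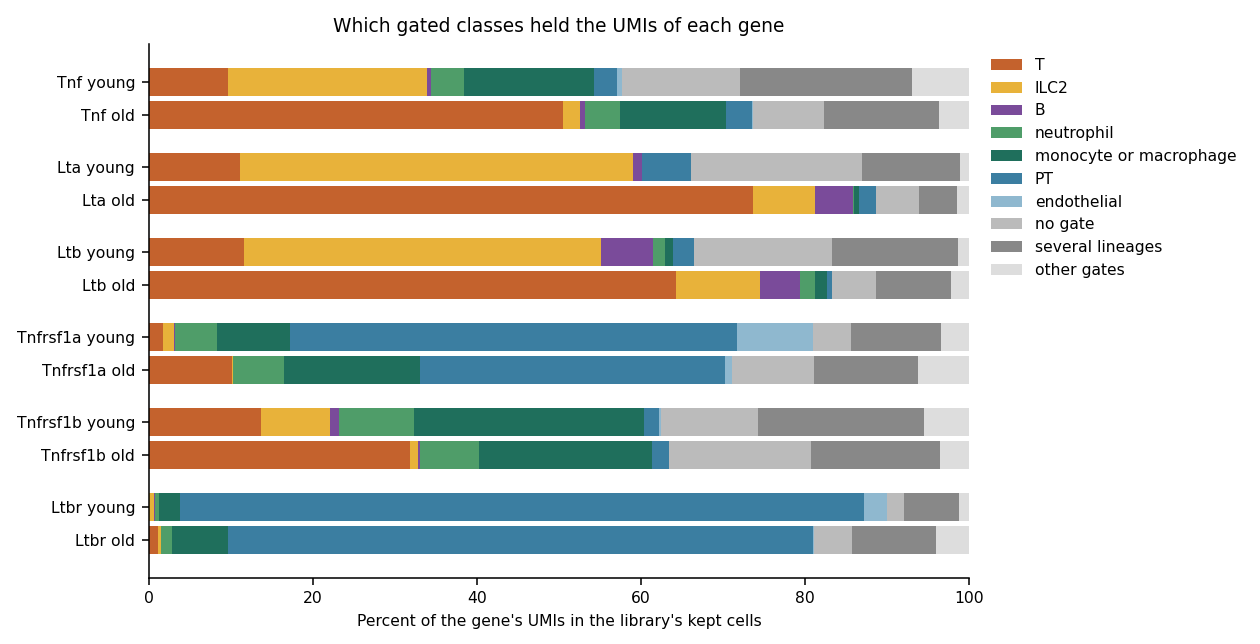
Percent of the UMIs of each gene held by each gated class, over all kept cells of the young and old library (x axis, percent); gray segments are cells of no gate, of several lineages and of the remaining gates. ILC2s held 48.0% of *Lta* UMIs in the young library and T cells 73.7% in the old, while PT cells held most *Ltbr* UMIs in each. PT cells also held most UMIs of all genes in each library.

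*Tnfrsf1a*, which encodes the death-domain receptor TNFR1, was highest in neutrophils, endothelial cells and monocytes or macrophages. Young neutrophils held 318 CPM (270.4 to 371) and old ones 240.2 CPM (211 to 273). Monocytes or macrophages held 164 CPM (145 to 184) and 175 CPM (162 to 189). Endothelial cells of the young library were at 209 CPM (186 to 235), and the 17 old endothelial cells at 243 CPM (164 to 348). Each of these classes stood far above T cells (19.3 and 17.3 CPM), by a log2 ratio of 3.09 (2.66 to 3.54) and 3.33 (3.15 to 3.52) for monocytes or macrophages.
In the tubule, PT cells held 14.9 CPM (14.2 to 15.6) and 21.7 CPM (20.6 to 22.8) of *Tnfrsf1a*, a log2 ratio of 0.55 (0.44 to 0.65). That ratio was 0.51 (0.26 to 0.76) in cells with *Xist* and no Y-linked UMI, 0.66 (0.53 to 0.79) in the reverse set and 0.57 (0.43 to 0.71) in PT cells without any T cell, monocyte or macrophage marker UMI. The modest PT difference was thus present in every set examined. Other epithelial cells of the old library were at 45.4 CPM (37.8 to 54.0, 131 cells). The lymphoid classes with least were ILC2s (6.11 and 4.24 CPM) and B cells (2.25 CPM with 3 UMIs and 0.818 CPM with 1 UMI), and NK cells or ILC1s held more than T cells in the old library, at 30.5 CPM (21.6 to 41.8). Of PT cells, 21.0% (young) and 27.8% (old) had a *Tnfrsf1a* UMI, or 1.60% and 2.20% at 1000 UMIs, against 0.123% and 0.0532% of B cells at that depth.

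*Tnfrsf1b*, which encodes TNFR2, a receptor without a death domain, was a leukocyte gene in these libraries. Neutrophils held 188 CPM (152 to 230) and 293 CPM (261 to 329), and monocytes or macrophages 170 CPM (151 to 191) and 235 CPM (219 to 251). T cells held 51.3 CPM (43.2 to 60.5) and 57.5 CPM (54.4 to 60.8), NK cells or ILC1s 37.4 and 46.5 CPM, ILC2s 12.5 CPM (10.0 to 15.5) and 24.2 CPM (17.3 to 33.0), and B cells 9.01 and 9.82 CPM. Endothelial cells, in contrast to their *Tnfrsf1a*, were at 1.46 CPM in the young library (2 UMIs in 255 cells). Within T cells, *Foxp3* cells were highest, at 192 CPM (124 to 283) and 158 CPM (124 to 198), against 42.5 and 64.9 CPM in CD4+ cells without *Foxp3*, log2 ratios of 2.17 (1.28 to 3.08) and 1.28 (0.91 to 1.64). At 1000 UMIs per cell, 15.9% and 13.7% of *Foxp3* T cells were expected to show a *Tnfrsf1b* UMI, against 0.0383% and 0.109% of PT cells.
The old library was higher for *Tnfrsf1b* in several classes, by log2 ratios of 0.95 (0.37 to 1.51) in ILC2s, 0.64 (0.30 to 0.99) in neutrophils and 0.47 (0.27 to 0.67) in monocytes or macrophages. In cells with *Xist* and no Y-linked UMI, the monocyte or macrophage ratio was -0.13 (-0.52 to 0.28), with 38 young and 63 old cells, and in the reverse set it was 0.36 (0.09 to 0.63). Without the cell holding most UMIs, the ILC2 ratio was 0.69 (0.05 to 1.30). It was 0.50 (-0.87 to 1.73) in ILC2s with *Xist* and no Y-linked UMI (22 young and 8 old UMIs) and 1.34 (0.60 to 2.06) in the reverse set. In neutrophils with Y-linked UMIs and no *Xist* the ratio was 0.23 (-0.21 to 0.68). In all T cells the ratio was 0.17 and its interval spanned 0 (-0.09 to 0.43).

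*Ltbr*, the receptor of the membrane lymphotoxin, was nearly absent from lymphocytes. Young T cells held 3 UMIs (1.09 CPM, 0.225 to 3.19) and old T cells 39 (1.73 CPM, 1.23 to 2.36), and no UMI was found in 85 young and 181 old NK cells or ILC1s, which allows up to 7.49 and 2.41 CPM. ILC2s held 3.49 and 5.45 CPM. Endothelial cells were highest in the young library, at 82.7 CPM (68.2 to 99.4), an interval that overlapped that of monocytes or macrophages. The 17 old endothelial cells held 24.3 CPM (5.02 to 71.2, 3 UMIs). Monocytes or macrophages held 60.9 CPM (49.7 to 73.9) and 61.7 CPM (53.9 to 70.3), neutrophils 42.0 and 46.0 CPM, and plasmacytoid dendritic cells 19.6 and 28.6 CPM. PT cells held 30.0 CPM (29.0 to 31.0) and 35.3 CPM (33.9 to 36.8), and other epithelial cells of the old library 36.1 CPM (29.4 to 43.8). *Ltb* and *Ltbr* thus divided between classes, the ligand in lymphocytes and neutrophils and the receptor in epithelial, endothelial and myeloid cells, with neutrophils and monocytes or macrophages holding each. Over all kept cells, PT cells held 83.4% and 71.3% of all *Ltbr* UMIs and 54.5% and 37.3% of all *Tnfrsf1a* UMIs. They also held 113491753 of the 145647185 UMIs of all genes in the young library and 66456976 of 119218130 in the old. These shares thus depend on the size of the class as well as on its level. In contrast, *Tnfrsf1b* UMIs were spread over monocytes or macrophages (27.9% and 21.0%), T cells (13.7% and 31.8%) and barcodes of several lineages (20.2% and 15.8%). Cells of no gate held 27.3 and 174.7 CPM of *Tnfrsf1b*, which was 11.9% and 17.3% of its UMIs, and their classes are not known. *Ltbr* UMIs were found in 35.4% and 42.5% of PT cells, or 2.99% and 3.57% at 1000 UMIs, against 0.107% and 0.142% of T cells.

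Ligand and receptors were also found in the same myeloid cells. Of the 96 old monocytes or macrophages with a *Tnf* UMI, 94.8% had *Tnfrsf1a* and 90.6% had *Tnfrsf1b*. Of the 77 young ones, 55.8% and 53.2% did, at a lower median depth. Over all cells of that gate the shares were 60.2% (young) and 88.9% (old) for *Tnfrsf1a* and 55.9% and 80.3% for *Tnfrsf1b*, so *Tnf*-bearing cells were close to the gate as a whole. Of the 712 old T cells with *Tnf*, 30.1% had *Tnfrsf1b* and 10.3% had *Tnfrsf1a*.

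Across the classes, the pattern of each gene was compared with that of 13458 other genes over 20 points (10 classes in each library, log2 of CPM + 1), as a description only, because points of a library share its depth and processing. The genes most like *Tnf* were *Rab8b* (Pearson r = 0.95), *Fxyd5* and *Lcp2*, and those most like *Tnfrsf1b* were *S100a6* (0.95), *Myo1f* and *Vsir*. *Ltb* was most like *4930523C07Rik* (0.97), *Limd2* and *Gm32036*, and *Lta* was most like *B630019A10Rik* (0.93), *Birc6* and *Axin2*. *Tnfrsf1a* was most like *Pxn* (0.91), *Chmp2a* and *Card19*, and *Ltbr* most like *Cebpa* (0.94), *Svip* and *Tctex1d2*. Among the 6 genes, the closest pair was *Tnf* and *Tnfrsf1b* (r = 0.92), ahead of *Lta* and *Ltb* (0.68), *Tnfrsf1a* and *Tnfrsf1b* (0.67) and *Tnfrsf1a* and *Ltbr* (0.65). *Tnf* and *Lta*, neighbors in the genome, gave r = 0.25.

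To place the differences between the ages, the members with at least 100 UMIs over both libraries in a class were read against all genes that met the same minimum there. In T cells 0 of 5 members differed by 2-fold or more, where 8.57% of genes did. In CD4+ T cells without *Foxp3* 1 of 4 did (*Lta*, background 8.78%), in CD8+ T cells 1 of 4 (*Tnf*, background 5.74%) and in coreceptor-negative T cells 0 of 4 (background 14.0%). In ILC2s it was 0 of 4 (background 3.72%), in neutrophils 0 of 4 (background 7.31%) and in monocytes or macrophages 0 of 5 (background 5.55%). In PT cells 2 of 4 did, *Tnfrsf1b* upward and *Ltb* downward (background 5.70%). Most members thus differed by less than 2-fold between the ages in these classes.
In PT cells *Tnfrsf1b* went from 20 UMIs (0.176 CPM, 0.108 to 0.272) to 84 UMIs (1.26 CPM, 1.008 to 1.56), in 37 of 3616 old cells. Of these 37 cells 54.1% had a monocyte marker UMI and 27.0% a macrophage marker UMI, against 17.0% and 5.25% of the other old PT cells, and their part in the result was not tested. In PT cells without T cell, monocyte or macrophage marker UMIs the level was 0.0826 CPM (6 UMIs) and 0.523 CPM (16 UMIs). The log2 ratio of *Tnfrsf1b* there was 2.66 (1.24 to 4.31). *Ltb* went from 5.44 CPM (5.02 to 5.88) to 2.69 CPM (2.31 to 3.12), and 47.3% of the 186 young PT cells with *Ltb* had a T cell marker UMI, against 10.2% of the others. An ILC2 marker UMI was found in 80.1% against 58.5%, and a monocyte marker UMI in 25.3% against 12.3%. In PT cells without T cell, monocyte or macrophage marker UMIs *Ltb* was 1.197 and 1.44 CPM, a log2 ratio of 0.26 (-0.29 to 0.80). The lower value of the old library was thus not present there, and cells with ILC2 marker UMIs had not been left out. The *Ltb* ratio was -0.29 (-0.80 to 0.20) in PT cells with *Xist* and no Y-linked UMI and -1.37 (-1.78 to -0.97) in the reverse set, and for *Tnfrsf1b* the first of these sets held only 1 young and 3 old UMIs.

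**Figure D4:**
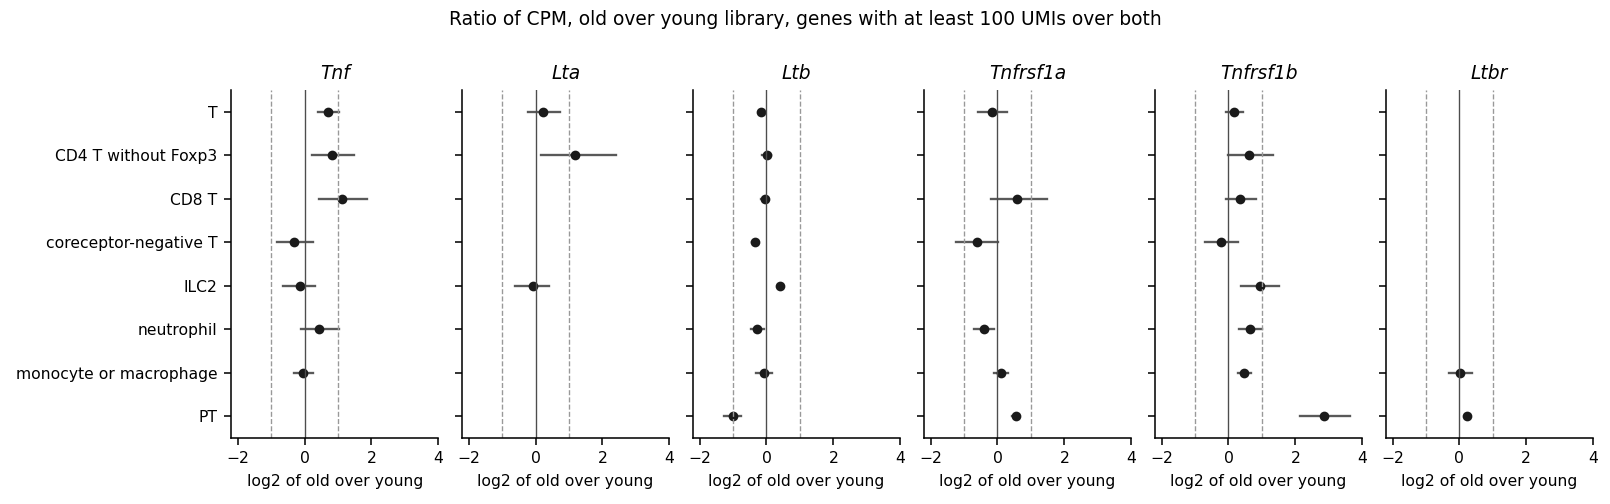
Log2 ratio of CPM, old over young library, for each of the 6 genes (panels) in 8 gates (rows), with 95% counting intervals as lines, for genes with at least 100 UMIs over both libraries; dashed lines mark 2-fold. In PT cells *Tnfrsf1b* lies at 2.84 and *Ltb* at -1.013, while the remaining points lie between -0.62 and 1.17.

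The signaling pathway was read through 60 genes in 8 lists. Among genes of ligand release and mRNA decay, *Zfp36*, which encodes an RNA-binding protein that destabilizes *Tnf* mRNA, was high in monocytes or macrophages, at 1776 (young) and 1019 CPM (old), and in ILC2s, at 1724 and 1582 CPM. From the same list, *Zfp36l1* was at 2082 and 2225 CPM and *Zfp36l2* at 1946 and 1775 CPM in ILC2s. *Nfkbia*, the NF-kB inhibitor induced by its own target factor, was found at high levels in T cells (959 and 911 CPM), in ILC2s (2793 and 2739 CPM) and in monocytes or macrophages (1191 and 1249 CPM). In T cells 0 of 45 tested pathway genes were higher by 2-fold and 2 were lower, *Tnfsf14* (LIGHT, a second LTβR ligand; 27.3 to 8.51 CPM) and the chemokine *Cxcl2* (103 to 14.4 CPM, of which 38.7% of the young UMIs came from 1 cell). In CD4+ cells without *Foxp3* 3 of 40 were higher (*Rnf31*, *Nfkbie*, *Ccl5*) and 1 lower (*Cxcl2*), in CD8+ cells 2 of 42 were higher (*Cxcl2*, *Csf1*), and in coreceptor-negative cells 1 of 40 was higher (*Traf1*) and 2 were lower (*Cxcl2*, *Tnfsf11*). In ILC2s 1 of 44 was higher, *Ccl5* (23.9 to 122 CPM), and 1 lower, *Cxcl2* (1144 to 426 CPM). Over all genes, either direction, the shares past 2-fold in these classes were 8.57%, 8.78%, 5.74%, 14.0% and 3.72% in the same order, so the counts were near or below them. In neutrophils 3 of 20 were higher, *Adam17*, *Traf1* and *Tnip1*, and none lower, against 7.31% of all 2093 genes there (108 higher and 45 lower). Each of the 3 rested on 19 to 40 young UMIs.

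In monocytes or macrophages 7 of 42 tested pathway genes were higher in the old library and 1 was lower, against 5.55% of all 5693 genes in either direction (160 higher and 156 lower). *Relb* (34.9 to 79.5 CPM) and *Nfkb2* (28.4 to 68.8 CPM), which encode the subunits of the alternative NF-kB arm that LTβR engages, were 2 of these, and *Traf1* went from 37.9 to 114 CPM. The inhibitors *Nfkbie* (35.5 to 84.1 CPM) and *Tnip1* (40.8 to 103 CPM) were higher too, and so were *Vcam1* (14.2 to 93.2 CPM) and *Ccl5* (14.8 to 64.7 CPM). A single cell gave 41.7% of the young and 21.8% of the old *Vcam1* UMIs, and 40.0% and 42.4% of those of *Ccl5*. The lower gene was *Timp3*, an inhibitor of the sheddase ADAM17 (50.3 to 19.7 CPM). The median log2 ratio over the 42 genes was 0.20, against 0.00 over all 5693 genes tested in this gate, and the depth per cell of this gate differed more than 2-fold between the libraries.

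PT cells gave the largest share of differing pathway genes, all of them higher in the old library: 12 of 48 tested, against 3.39% of all 12410 genes. The lists were chosen with earlier results of these data known, so their counts are a description and not independent support. Of the 12 inflammatory target genes, 9 reached 100 UMIs and all 9 were higher by 2-fold or more, with a median log2 ratio of 2.78 against 0.01 over all genes. The chemokine genes *Cxcl10* (6.32 to 85.8 CPM), *Cxcl1* (6.72 to 51.3 CPM), *Ccl2* (0.141 to 16.1 CPM), *Ccl5* (6.96 to 36.7 CPM) and *Cxcl2* (3.67 to 8.25 CPM) were among them. So were the adhesion molecule genes *Vcam1* (0.872 to 21.9 CPM) and *Icam1* (11.7 to 29.8 CPM), and *Csf1* and *Tnfaip2*. Outside that list, *Relb* (2.78 to 7.51 CPM), *Traf1* (0.449 to 1.204 CPM) and *Mlkl* (0.185 to 1.47 CPM), which encodes the executor of necroptosis, were higher. The other NF-kB subunits stayed below 2-fold, as with *Rela* (13.2 to 21.0 CPM) and *Nfkb1* (11.9 to 17.6 CPM), and so did the receptor genes *Tnfrsf1a* and *Ltbr*.
A minority of PT cells carried each of these transcripts. *Cxcl10* UMIs were present in 2.59% of PT cells at the young age and 11.4% at the old (0.323% and 3.29% at 1000 UMIs), *Cxcl1* in 4.73% and 14.2%, *Icam1* in 14.8% and 26.4%, *Vcam1* in 1.09% and 4.67%, and *Ccl2* in 0.169% and 0.664%. For *Ccl2*, 77.5% of the old UMIs came from 1 cell, and without it the level was 3.61 CPM against 0.106 CPM. *Cxcl1* and *Vcam1* were at 1.55 and 1.42 CPM in T cells of the old library, below their level in old PT cells, and at 89.1 and 93.2 CPM in old monocytes or macrophages, above it. *Ccl5* was 6481 CPM in old T cells, and T cell markers in the PT gate summed to 10.7 CPM (young) and 23.3 CPM (old), monocyte markers to 12.4 and 23.8 CPM and macrophage markers to 2.88 and 4.42 CPM, with at least 4 members of each list found. The part of RNA from these classes was not tested beyond PT cells without their marker UMIs, given next.
In PT cells without T cell, monocyte or macrophage marker UMIs, 7 of the 9 genes were still higher by 2-fold or more, including *Cxcl10* (7.004 to 82.5 CPM), *Cxcl1* (7.07 to 45.8 CPM) and *Vcam1* (0.881 to 16.6 CPM), and *Cxcl2* and *Tnfaip2* were not. In cells with Y-linked UMIs and no *Xist* 9 of 9 were higher, and in the reverse set 6, where *Cxcl2* was lower (5.86 to 2.997 CPM). With the cell richest in each gene left out, the number was 8, and with 1 more marker asked for in every gate it was also 8. The latter is not only a stricter PT gate, because barcodes of several lineages can then enter it. Its 5929 young cells held 554 *Cxcl2* UMIs, against 416 in the 6526 cells of the main gate. The differences between the ages compare 2 pools and have no replicate check, and whether TNF signaling induced them was not tested.

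**Figure D5:**
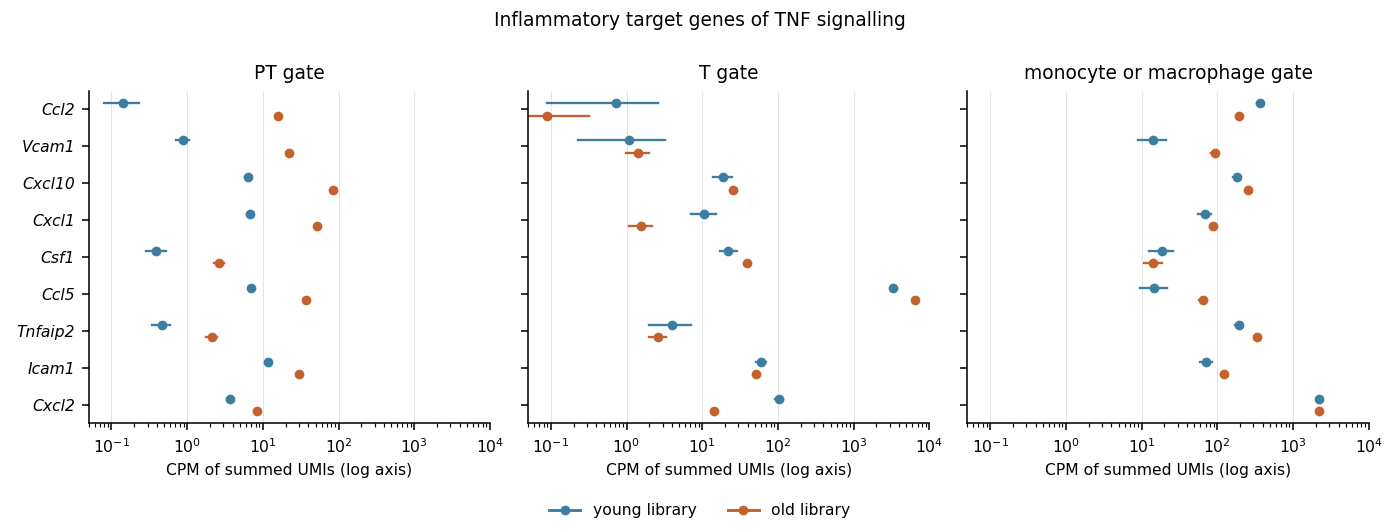
Level of 9 inflammatory target genes in the PT, T and monocyte or macrophage gates, as CPM of summed UMIs on a log axis, in the young (blue) and old (orange) library with 95% counting intervals. All 9 genes lie to the right in the old library in the PT gate, which is not so in the T gate, where *Cxcl2* went from 103 to 14.4 CPM.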

How the data were processed

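Droplet libraries of the 10x Chromium 3′ chemistry (version 3.1) were aligned to mm10 by the authors with Cell Ranger (version 3 in the submitters' notes, 3.1.0 in the matrix header). The deposited values are raw UMI counts per gene and barcode, not normalized, in 15076 young and 12622 old barcodes. The filter of the study was applied (at least 200 genes, at most 20% mitochondrial UMIs). Cells were gated on 18 marker lists that hold none of the 6 genes, asking for 3 markers in most gates, 2 in other epithelial cells, 4 in endothelial cells, neutrophils and plasmacytoid dendritic cells and 5 in PT cells. These numbers were set from marker counts alone. ILC2s, ILC3s and NK cells or ILC1s had to lack *Cd3d*, *Cd3e* and *Cd3g*. No doublet caller was run, and barcodes that met gates of several lineages were left out in its place. The members, lists and gates were chosen with earlier results of these data known.

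UMIs were summed over a class and library and scaled to CPM, with exact Poisson 95% intervals, ratios with exact binomial intervals and shares of cells with the Clopper-Pearson method. An upper limit for 0 UMIs is 3 counts over the class. Shares at 1000 UMIs are the hypergeometric expectation over cells of at least that depth. Differences of 2-fold between the ages were counted only for genes with at least 100 UMIs over both libraries in a class, and values below that minimum are given with their UMIs. Levels of different genes were set side by side only to choose names, since capture differs between genes. Named genes were the members, the 3 genes most like each member (at least 200 UMIs) and the pathway genes past 2-fold or highest in their list. Alternatives were 1 more marker per gate, barcodes of several lineages kept, at most 10% mitochondrial UMIs, at least 500 genes, the most abundant genes kept out of the sum, a mean of single-cell CPM, the 5% of cells with most UMIs left out, subsets by *Xist* and Y-linked genes, and thinning to 500 or 2000 UMIs. The ratio and interval steps were tested on simulated counts, and the gating was not tested in this way. Python 3.11.15, NumPy 2.4.6, SciPy 1.17.1, pandas 2.3.3 and Matplotlib 3.10.9 were used. Gene positions are from GENCODE M21. Flow cytometry and other assays of the study were not analysed here.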

Additional observations from a re-analysis of the deposited data

Results flagged for a closer look

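Signals of the ligand genes were also found in gates too small for the comparisons. In the young library 17 cells of the basophil or mast cell gate held 262 CPM of *Tnf* (162 to 401, 21 UMIs), above every class of at least 50 cells. In the old library the 3 cells of the ILC3 gate held 122 CPM of *Lta* (3 UMIs) and 2726 CPM of *Ltb* (67 UMIs), values above those of the larger classes that rest on 3 cells, of which 2 had *Lta* and 1 gave 80.6% of the *Ltb* UMIs. The 9 young cells of that gate held 1011 CPM of *Ltb*, below young ILC2s, and 165.8 CPM of *Tnf* (79.5 to 305, 10 UMIs), and the 11 old cells of the basophil or mast cell gate 163.7 CPM of *Tnf* (18 UMIs). A single cell gave 38.1% of the young and 55.6% of the old *Tnf* UMIs of the basophil or mast cell gate and 50% of those of the young ILC3 gate.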

How the results depend on the processing

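With 1 library per age and pooled mice, intervals cover counting error only, and age, pool and library cannot be told apart. No paired analysis was possible because each age has 1 library. Over the 15 ratios of the comparisons and the alternatives tried, 101 of 111 values stayed within the counting interval of the value reported, 8 moved outside it and 2 changed sign. With 1 more marker per gate, *Tnfrsf1b* in monocytes or macrophages over T cells, old library, was 1.87 against 2.03. With barcodes of several lineages kept, *Tnfrsf1a* (old) was 3.08 against 3.33, *Ltbr* 2.54 against 5.80 (young) and 3.41 against 5.16 (old), and *Ltb* in T cells, old over young, 0.023 against -0.15. With the most abundant genes kept out of the sum, the old ratios of monocytes or macrophages over T cells were 0.45 for *Tnf*, 3.12 for *Tnfrsf1a* and 1.81 for *Tnfrsf1b*. *Ltb* in T cells, old over young, was 0.14 in cells with *Xist* and no Y-linked UMI and -0.22 in the reverse set. The cause was not tested.

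Other alternatives were chosen after seeing the data. *Tnfrsf1b* in monocytes or macrophages, old over young, was -0.13 in cells with *Xist* and no Y-linked UMI against 0.47 in all, and *Ltb* in PT cells was 0.26 against -1.01 when cells with T cell, monocyte or macrophage marker UMIs were left out. The number of inflammatory target genes higher in old PT cells ranged from 6 to 9 of 9. Shares of cells with a UMI moved with the depth of thinning: in T cells, the share for *Tnf* was 1.73% (young) and 2.56% (old) at 500 UMIs and 6.34% and 8.51% at 2000 UMIs. At this depth *Lta* in myeloid cells and *Ltbr* in lymphocytes were near or at the limit of 3 counts.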
